A study of Homo sapiens with 36 samples.

Results

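The genes described here are 10 factors that build the mitotic spindle: AURKA, TPX2, PLK1, BORA, TACC3, CKAP5, HMMR, DLGAP5, NUSAP1 and CKAP2. They were chosen by name as members of 1 machinery, with earlier results of these data known, and every probe annotated to 1 of them was used, which gave 16 of the 47320 probes tested and 10 of the 20045 genes named. Their RNA was measured on Illumina HumanHT-12 bead arrays in the established lines BE(2)-C and IMR-32, both from human neuroblastoma with amplified MYCN. The cells were transfected transiently with 1 of 2 siRNAs against HDAC11, called HDAC11 siRNA no. 1 and no. 2, or a non-targeting negative control siRNA and harvested after 42, 48 or 54 h. HDAC11 is a histone deacetylase, and the comparisons ask how its depletion changes transcripts over time. Line, siRNA and time made 18 groups with 2 replicates in each, so that 6 arrays stood for each siRNA in each line and the control arrays of a line served both HDAC11 siRNAs. All groups were grown in the same medium and carried the transfection reagent, and untransfected cells are not among these samples. The study calls the replicates biological but does not say whether they came from separate cultures, so the p-values measure only the spread between these samples.

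AURKA is the kinase that matures centrosomes and drives bipolar spindle formation, and TPX2 activates it on spindle microtubules after release by the RAN system near chromatin. BORA is the cofactor with which AURKA switches on PLK1, the Polo-like kinase of mitotic entry. TACC3, a substrate of AURKA, joins CKAP5, a microtubule polymerase, to the fibres that pull on chromosomes. HMMR anchors TPX2 at spindle poles, DLGAP5 stabilises kinetochore fibres, NUSAP1 bundles microtubules around chromosomes, and CKAP2 promotes microtubule growth from the poles. Transcripts of most such factors accumulate in the G2 and M phases and fall after division, and AURKA is further known in neuroblastoma for stabilising the MYCN protein. In RNA of whole cultures, a change in the share of cells in a phase and a change of a transcript per cell cannot be told apart. The study reports by microscopy that mitotic cells became more frequent, not rarer, in both lines after the knockdown. How the phases were shared in the cultures of these arrays was not tested.

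The siRNAs are different molecules against HDAC11, and how far apart their targets lie is not given. No. 1 is described only as lying in exon 8, and the target sequence of no. 2 is shown in the next line because every comparison between the siRNAs rests on it. HDAC11 lies on chromosome 3.
HDAC11 siRNA no. 2 target: gcgagacttcatggacgacaa

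Array medians were 104 to 135 before normalization, against background centres of 95.3 to 122, and 36.1% to 41.8% of probes were detected per array. For each of the 36 arrays the most similar other array was one of the same line and siRNA, and for 21 it was the replicate. The HDAC11 probe itself was at background. It was detected on 2 of the 6 IMR-32 control arrays, on none of the BE(2)-C control arrays and on none of the 24 HDAC11 siRNA arrays, with log2 fold changes of -0.03 to -0.09, none past the test, so that these arrays do not check the knockdown. Of the 8 measured markers of adrenergic neuroblastoma cells, all were detected on the 18 BE(2)-C arrays, and 6 on the 18 IMR-32 arrays, with GATA2 on 7 and DBH on 11. Of 8 mesenchymal markers, FN1 and YAP1 were detected nowhere and SNAI2 on all 36 arrays. CD44 was detected on 15 BE(2)-C and no IMR-32 arrays, COL1A1 on 3 and 8, COL1A2 on 0 and 5, COL3A1 on 0 and 1 and PRRX1 on 1 and 0. Of 6 blood and vessel markers, CD3E, PECAM1 and CDH5 were detected nowhere, CD14 on 18 BE(2)-C and 13 IMR-32 arrays, HBB on 3 and 4 and PTPRC on 0 and 1.

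Most of the spindle genes were lower after HDAC11 siRNA, and most of these by more with siRNA no. 1. A gene was called where the adjusted p of its siRNA minus control difference, averaged over the 3 times, was under 0.05, and its value is that of its brightest probe. In BE(2)-C cells, siRNA no. 1 lowered 9 of 10 genes and raised none, with 11.5% of all genes called lower and 12.9% higher (24% lower among the genes detected on all 12 arrays). CKAP5 was the gene that did not pass. Under siRNA no. 2, 7 genes fell in the same line (7.54% of all genes, 15.6% of the detected ones), and AURKA and PLK1 rose (6.39% and 14.3% called higher), while TACC3 did not pass. Among IMR-32 cells, siRNA no. 1 lowered 9 genes, again without CKAP5, and raised none (10.9% of all genes lower and 13.3% higher, 21.5% of detected genes lower). With siRNA no. 2, 8 fell there and AURKA and PLK1 did not pass in either direction (7.28% of all genes lower and 6.02% higher, 14.7% of detected genes lower). The median log2 fold change of the 10 genes for siRNAs no. 1 and no. 2 was -0.54 and -0.32 in the BE(2)-C line, against -0.83 and -0.37 in the IMR-32 line, and the median of all genes was -0.001 to 0.006. Both siRNAs of a line were set against the same 6 control arrays, so their values are given side by side and not as independent evidence of each other.

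**Figure D1:**
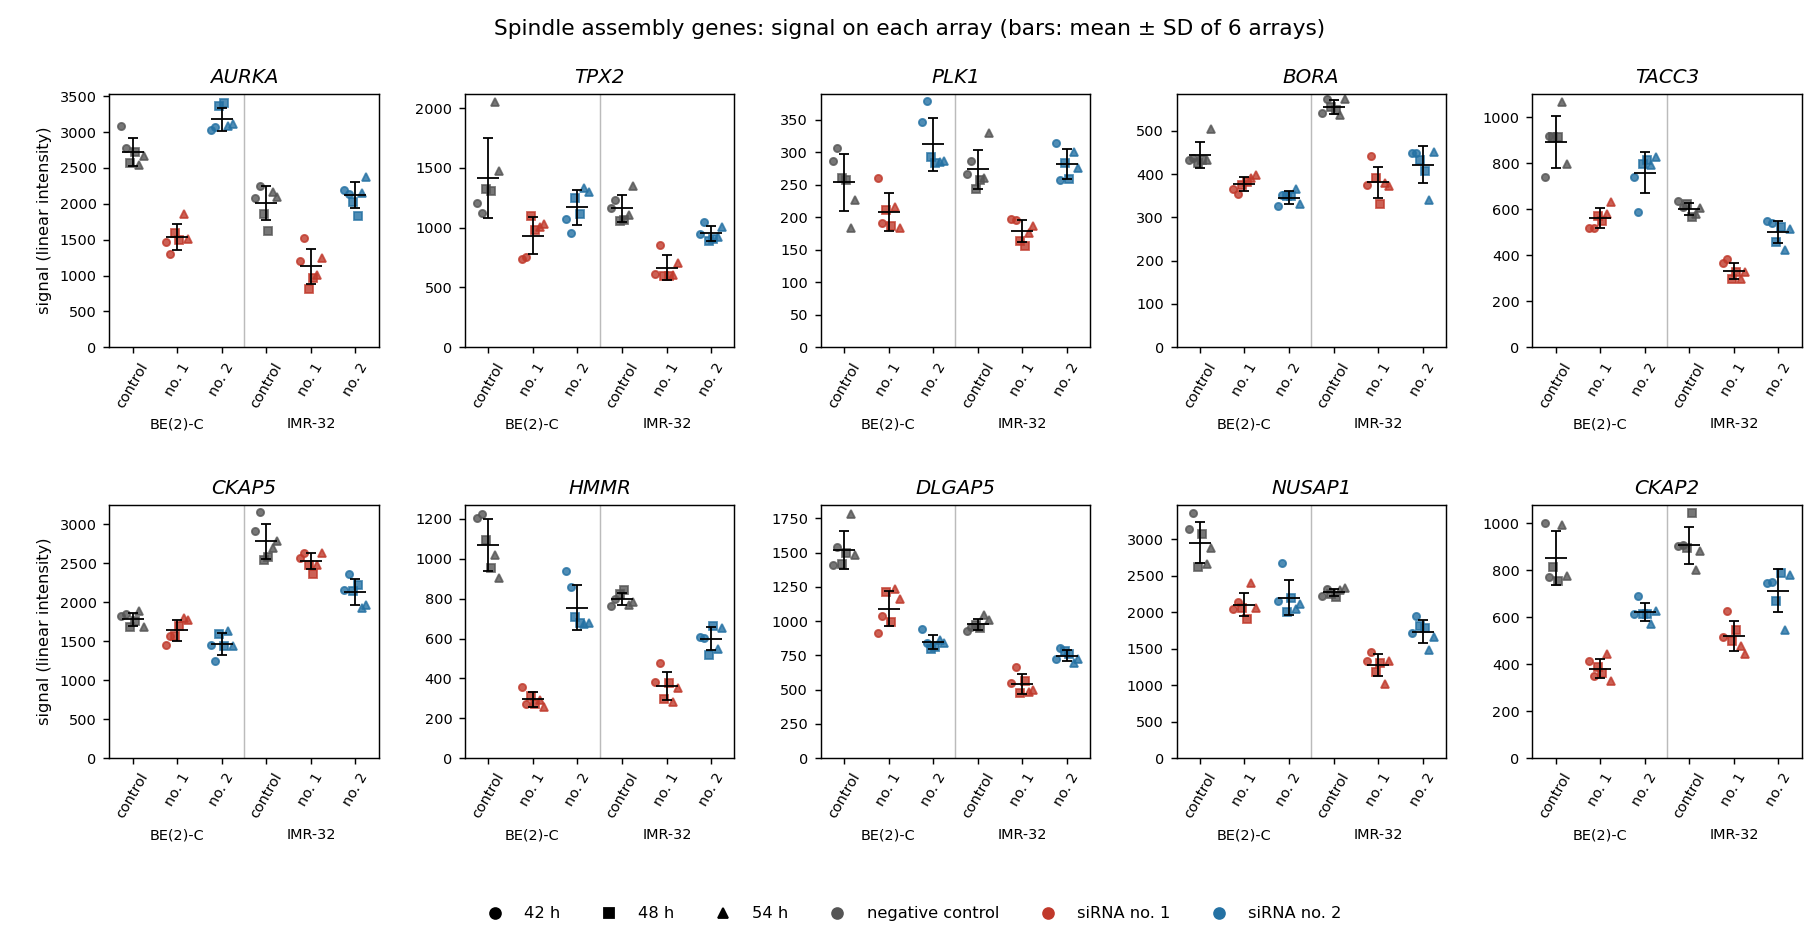
Signal of each spindle gene on every array (vertical axes, linear intensity after quantile normalization, each starting at 0), by cell line and siRNA (horizontal axes). Points are arrays, shaped by time, and bars are the mean ± SD of 6 arrays. HMMR shows a wide gap, 259 to 359 with siRNA no. 1 against 906 to 1224 in BE(2)-C controls, while AURKA with siRNA no. 2 lies at 3029 to 3408 against 2540 to 3082 in the same controls.

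The separation of whole arrays is given for the brightest probe of each gene. All 6 arrays of siRNA no. 1 lay below all 6 control arrays for 8 genes in BE(2)-C cells (6.58% of all genes) and for 9 in IMR-32 cells (7.37%). For siRNA no. 2 the numbers were 4 genes (3.69%) and 8 genes (4.53%). No brightest probe of a member lay wholly above its controls, as 7.09% (BE(2)-C) and 8.22% (IMR-32) of all genes did for siRNA no. 1, and 2.79% and 3.57% for no. 2. The plot of signals on each array shows these gaps, and which genes share them.

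The proximal promoters are shown because most of the genes fell with siRNA no. 1 and because genes of the G2 and M phases are known for 2 short elements, the cell cycle genes homology region (CHR) and the CCAAT box. Except for CKAP2, the window runs from 250 bases before to 50 after the start of the gene, taken from RefSeq on GRCh38.p14. The CKAP2 window lies inside the gene, at 52455738 to 52456037 of chromosome 13, while the gene begins at 52455478. A window was found for 8 of the 10 genes, the exceptions being AURKA and TPX2. The CHR was searched as TTTGAA or TTCGAA and the CCAAT box as CCAAT, on both strands. A CHR stood in 6 of the 8 windows, those of PLK1, BORA, CKAP5, HMMR, DLGAP5 and NUSAP1, against 16.4% of all 35116 windows. The same 6 genes held a CCAAT box, against 34.6%. TACC3 held neither, and neither did the CKAP2 window, which does not cover the listed start of that gene. Of E2F-type words, which were the word TTTGGCG, the word TTTCCCG, the word TTTCGCG and the word TTTGCCG, NUSAP1 alone had any (8.67% of all windows), and the E-box CACGTG stood only in PLK1 (7.26%). In these windows no match of 1 motif overlapped a match of another. A match is a description of the letters and not a site or a cause, and the lack of one says only that the letters are not in this window.

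4 windows follow, each 300 bases from 5′ to 3′ on the strand of its gene, with each CHR match in capitals. HMMR had the largest fall of the 10 genes, DLGAP5 the largest with siRNA no. 2 in BE(2)-C cells, PLK1 moved in opposite directions in BE(2)-C cells, and CKAP5 is the gene that did not pass with siRNA no. 1.
HMMR, chr5:163460382-163460681, plus strand: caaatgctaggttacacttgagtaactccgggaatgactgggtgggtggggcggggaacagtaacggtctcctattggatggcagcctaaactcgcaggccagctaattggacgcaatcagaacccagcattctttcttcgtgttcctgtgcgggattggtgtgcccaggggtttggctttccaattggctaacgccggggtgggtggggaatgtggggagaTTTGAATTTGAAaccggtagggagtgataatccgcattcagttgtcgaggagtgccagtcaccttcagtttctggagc
DLGAP5, chr14:55191536-55191835, minus strand: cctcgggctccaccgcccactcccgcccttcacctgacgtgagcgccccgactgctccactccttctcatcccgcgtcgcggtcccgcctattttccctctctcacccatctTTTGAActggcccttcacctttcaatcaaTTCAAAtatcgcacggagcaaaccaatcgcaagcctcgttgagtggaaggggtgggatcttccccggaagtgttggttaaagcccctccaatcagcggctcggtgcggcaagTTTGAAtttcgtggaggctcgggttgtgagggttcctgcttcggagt
PLK1, chr16:23678639-23678938, plus strand: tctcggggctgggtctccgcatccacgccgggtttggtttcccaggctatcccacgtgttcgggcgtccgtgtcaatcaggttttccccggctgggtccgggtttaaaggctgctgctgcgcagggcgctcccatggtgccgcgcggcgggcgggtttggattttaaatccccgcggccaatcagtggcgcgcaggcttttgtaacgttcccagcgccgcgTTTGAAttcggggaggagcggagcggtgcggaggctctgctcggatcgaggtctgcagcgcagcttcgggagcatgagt
CKAP5, chr11:46846231-46846530, minus strand: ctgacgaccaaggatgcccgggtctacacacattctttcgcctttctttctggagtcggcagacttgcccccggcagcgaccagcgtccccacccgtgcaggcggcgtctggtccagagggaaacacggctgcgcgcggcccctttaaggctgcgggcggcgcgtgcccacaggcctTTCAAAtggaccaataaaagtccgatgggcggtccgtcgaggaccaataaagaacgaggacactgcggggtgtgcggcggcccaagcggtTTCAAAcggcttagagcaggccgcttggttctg
HMMR carried 2 abutting copies of TTTGAA at -28 to -23 and -22 to -17 from the start, and 5 CCAAT matches further upstream, of which the pair nearest the start share letters. DLGAP5 carried 3 CHR matches, at -138 to -133, -109 to -104 and 4 to 9. PLK1 had 1, at -29 to -24, with its CCAAT box at -73 to -69. CKAP5 held the word on the opposite strand at -73 to -68 and at 18 to 23. TACC3, with no CHR in the window, fell with siRNA no. 1 in both lines. CKAP2 fell too, but its window lies inside the gene and does not show its start.

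AURKA and PLK1 fell with siRNA no. 1 and did not fall with siRNA no. 2. AURKA signals in BE(2)-C cells ran from 2540 to 3082 in controls (median 2694), from 1300 to 1853 with siRNA no. 1 (median 1501) and from 3029 to 3408 with siRNA no. 2 (median 3102). The siRNA no. 1 arrays all lay below the controls, whereas 4 of the 6 siRNA no. 2 arrays lay above every control array and none below the control mean of its time. AURKA thus fell 1.78-fold with siRNA no. 1 (log2 fold change -0.83, standard error (SE) 0.07, adjusted p = 3.01e-09) and rose 1.17-fold with siRNA no. 2 (0.22, SE 0.06, adjusted p = 0.0259). The rise was small. It did not pass with median scaling (0.19, adjusted p = 0.0726) or without any 1 of 7 arrays, namely control replicate 2 of 42 h, control replicate 1 of 48 h and every siRNA no. 2 array except replicate 1 of 42 h (adjusted p = 0.0547 to 0.0982). The other AURKA probe gave -0.80 and 0.30 (adjusted p = 2.32e-09 and 0.00321), with all 6 siRNA no. 2 arrays above all controls.

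In IMR-32 cells, AURKA signals were 1615 to 2248 in controls (median 2087), 818 to 1519 with siRNA no. 1 (median 1106) and 1828 to 2374 with siRNA no. 2 (median 2142). Here too the siRNA no. 1 arrays were all below the controls, and the siRNA no. 2 arrays were spread through the control range. AURKA fell 1.81-fold with siRNA no. 1 (-0.85, SE 0.07, adjusted p = 8.05e-12), while its log2 fold change with siRNA no. 2 was 0.08 (95% confidence interval -0.04 to 0.20, adjusted p = 0.561).

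PLK1, the kinase that AURKA and BORA activate, was the dimmest member, with signals down to 1.52 times the background centre, where fold changes are compressed. Controls of the BE(2)-C line read 184 to 307 (median 259), siRNA no. 1 arrays 184 to 261 (median 201) and siRNA no. 2 arrays 284 to 379 (median 290). These groups overlapped, and 2 siRNA no. 2 arrays lay above all controls. PLK1 fell with siRNA no. 1 (-0.28, SE 0.08, adjusted p = 0.0173) and rose with siRNA no. 2 (0.31, SE 0.07, adjusted p = 0.00369). The fall did not pass with normexp background correction (-0.37, adjusted p = 0.111), nor without control replicate 2 of 42 h or replicate 2 of siRNA no. 1 at 42, 48 or 54 h (adjusted p = 0.0584 to 0.111). The IMR-32 control signals of PLK1 were 243 to 329 (median 263), those of siRNA no. 1 were 155 to 197 (median 181) and those of siRNA no. 2 were 258 to 314 (median 279). There the siRNA no. 1 arrays lay wholly below the controls and PLK1 fell 1.53-fold (-0.61, SE 0.06, adjusted p = 1.10e-09). Its log2 fold change with siRNA no. 2 was 0.05 (95% confidence interval -0.09 to 0.18, adjusted p = 0.822).

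TPX2 and BORA, the activating cofactors of these kinases, were lower under both siRNAs. TPX2 in BE(2)-C cells had signals of 1122 to 2048 in controls (median 1318), 737 to 1102 with siRNA no. 1 (median 993) and 954 to 1329 with siRNA no. 2 (median 1182). The siRNA no. 1 arrays lay below all controls and the siRNA no. 2 arrays overlapped with them. TPX2 fell under siRNA no. 1 (-0.59, SE 0.07, adjusted p = 1.97e-06) and under no. 2 (-0.25, SE 0.08, adjusted p = 0.0406). The second fall did not pass with normexp correction (-0.27, adjusted p = 0.133) or without any 1 of 9 of the 12 arrays (adjusted p = 0.0669 to 0.142). These 9 were all controls but replicate 2 of 54 h, and the siRNA no. 2 arrays of replicate 2 at 42 h, replicate 2 at 48 h and both replicates at 54 h. Control signals of TPX2 in IMR-32 cells were 1057 to 1352 (median 1133), and those of siRNA no. 1 (599 to 859, median 612) and siRNA no. 2 (885 to 1052, median 937) lay wholly below them. TPX2 fell there under siRNA no. 1 (-0.81, SE 0.07, adjusted p = 4.37e-11) and under no. 2 (-0.28, SE 0.06, adjusted p = 0.00155).

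BORA had 427 to 504 in BE(2)-C controls (median 433), 355 to 399 with siRNA no. 1 (median 378) and 326 to 366 with siRNA no. 2 (median 350). In IMR-32 cells the ranges were 537 to 574 (median 552), 331 to 441 (median 377) and 341 to 451 (median 441). All 4 siRNA groups lay wholly below their controls, in contrast to AURKA and PLK1, the kinases that BORA links. Under siRNA no. 1 BORA fell in the BE(2)-C line (-0.23, SE 0.06, adjusted p = 0.00891) and more in the IMR-32 line (-0.54, SE 0.06, adjusted p = 1.14e-08). Under siRNA no. 2 its values were -0.36 (SE 0.07, adjusted p = 6.98e-04) and -0.40 (SE 0.06, adjusted p = 2.53e-05).

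TACC3 and CKAP5, which act as a pair on spindle fibres, behaved differently. TACC3 signals in BE(2)-C cells were 739 to 1064 in controls (median 913), 519 to 631 with siRNA no. 1 (median 559) and 589 to 828 with siRNA no. 2 (median 793). In IMR-32 cells they were 566 to 634 (median 606), 295 to 383 (median 325) and 423 to 549 (median 517). Except for siRNA no. 2 in BE(2)-C cells, the groups did not overlap with their controls. TACC3 fell under siRNA no. 1 both in the BE(2)-C line (-0.66, SE 0.08, adjusted p = 4.63e-07) and in the IMR-32 line (-0.87, SE 0.06, adjusted p = 1.24e-13), and under siRNA no. 2 in the latter (-0.27, SE 0.06, adjusted p = 0.0025). Its log2 fold change with siRNA no. 2 in BE(2)-C cells was -0.23 (SE 0.08, adjusted p = 0.0967), which passed with median scaling (adjusted p = 0.039), without siRNA no. 2 replicate 1 of 42 h (adjusted p = 0.0434) and without control replicate 2 of 54 h (adjusted p = 0.0109).

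CKAP5 showed the other order of the siRNAs, passing with no. 2 and not with no. 1, though its values were below 0 in all 4 comparisons. Its BE(2)-C signals were 1681 to 1889 in controls (median 1788), 1456 to 1791 with siRNA no. 1 (median 1628) and 1242 to 1627 with siRNA no. 2 (median 1443). In IMR-32 cells they were 2543 to 3157 (median 2743), 2365 to 2637 (median 2523) and 1920 to 2368 (median 2150). The siRNA no. 2 arrays lay below all controls in both lines and the siRNA no. 1 arrays overlapped with them. CKAP5 fell under siRNA no. 2 both in the BE(2)-C line (-0.29, SE 0.07, adjusted p = 0.00824) and in the IMR-32 line (-0.38, SE 0.06, adjusted p = 9.60e-06). With siRNA no. 1 the values were -0.12 (95% confidence interval -0.25 to 0.01, adjusted p = 0.268) and -0.13 (-0.25 to -0.02, adjusted p = 0.113). The IMR-32 value passed with median scaling (-0.19, adjusted p = 0.0344), with normexp correction (-0.14, adjusted p = 0.026) and over detected probes only (adjusted p = 0.039). A second CKAP5 probe, read at 1.12 times the background centre on its dimmest array and detected on 35 arrays, passed in none of the 4 comparisons (-0.15 to -0.21).

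HMMR, the spindle pole protein that also binds hyaluronan at the cell surface, fell furthest with siRNA no. 1 in both lines. Signals in BE(2)-C controls were 906 to 1224 (median 1057), with siRNA no. 1 they were 259 to 359 (median 283) and with siRNA no. 2 they were 673 to 937 (median 693). All siRNA no. 1 arrays and 5 of 6 siRNA no. 2 arrays were below every control array. HMMR fell 3.62-fold (-1.85, SE 0.08, adjusted p = 3.75e-14) and 1.42-fold (-0.50, SE 0.07, adjusted p = 1.44e-05). The IMR-32 controls read 762 to 841 (median 792), siRNA no. 1 arrays 280 to 477 (median 365) and siRNA no. 2 arrays 518 to 664 (median 605), with no overlap. The falls there were 2.24-fold (-1.16, SE 0.07, adjusted p = 1.27e-14) and 1.34-fold (-0.42, SE 0.06, adjusted p = 1.62e-05). Its other probe gave -1.90, -0.72, -1.02 and -0.38 in the same order of comparisons, all past the test.

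DLGAP5, which stabilises kinetochore fibres, was the member that siRNA no. 2 lowered most in BE(2)-C cells. There its signals were 1407 to 1786 in controls (median 1489), 916 to 1236 with siRNA no. 1 (median 1097) and 796 to 945 with siRNA no. 2 (median 841). Neither siRNA group reached the control range. DLGAP5 fell 1.40-fold (-0.48, SE 0.07, adjusted p = 1.77e-05) and 1.79-fold (-0.84, SE 0.07, adjusted p = 1.84e-08). Its IMR-32 signals were 926 to 1043 in controls (median 964), 476 to 669 with siRNA no. 1 (median 522) and 692 to 807 with siRNA no. 2 (median 743), again apart from the controls. The order was turned in this line, with falls of 1.82-fold (-0.86, SE 0.06, adjusted p = 4.56e-13) and 1.31-fold (-0.38, SE 0.06, adjusted p = 8.83e-06). The second DLGAP5 probe gave -0.50, -0.89, -0.83 and -0.44.

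NUSAP1 and CKAP2, both microtubule-binding proteins of the spindle, fell in all 4 comparisons. NUSAP1 had signals of 2623 to 3356 in BE(2)-C controls (median 2969), 1912 to 2395 with siRNA no. 1 (median 2058) and 2002 to 2671 with siRNA no. 2 (median 2135). Its IMR-32 signals were 2208 to 2328 (median 2274), 1019 to 1450 (median 1321) and 1478 to 1945 (median 1748). A single array, siRNA no. 2 replicate 2 of 42 h in BE(2)-C cells, reached into the control range. Under siRNA no. 1 NUSAP1 fell in the BE(2)-C line (-0.49, SE 0.07, adjusted p = 6.38e-06) and in the IMR-32 line (-0.85, SE 0.06, adjusted p = 1.80e-12). Under siRNA no. 2 its values were -0.43 (SE 0.07, adjusted p = 2.66e-04) and -0.39 (SE 0.06, adjusted p = 8.39e-06). The second NUSAP1 probe gave -0.56 and -0.95 under siRNA no. 1 and -0.35 in each line under no. 2, and by this probe the siRNA no. 2 arrays overlapped with the controls in IMR-32 cells and not in BE(2)-C cells.

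CKAP2 read 754 to 1000 in BE(2)-C controls (median 794), 330 to 443 with siRNA no. 1 (median 376) and 569 to 688 with siRNA no. 2 (median 614). The IMR-32 ranges were 802 to 1043 (median 899), 444 to 627 (median 508) and 546 to 788 (median 747). By this probe no siRNA array of CKAP2 reached a control array of its line. CKAP2 fell 2.23-fold (-1.16, SE 0.09, adjusted p = 6.31e-10) and 1.36-fold (-0.45, SE 0.08, adjusted p = 4.81e-04) in BE(2)-C cells, and 1.75-fold (-0.81, SE 0.06, adjusted p = 3.61e-12) and 1.28-fold (-0.35, SE 0.07, adjusted p = 7.58e-04) in IMR-32 cells. The last value did not pass with normexp correction (-0.38, adjusted p = 0.0614). The second CKAP2 probe gave -1.09 and -0.34 in BE(2)-C and -0.75 and -0.33 in IMR-32 cells, all past the test. With siRNA no. 2 its signals overlapped with the controls in both lines, at 429 to 685 against 553 to 782 in BE(2)-C and at 427 to 554 against 533 to 647 in IMR-32 cells.

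**Figure D2:**
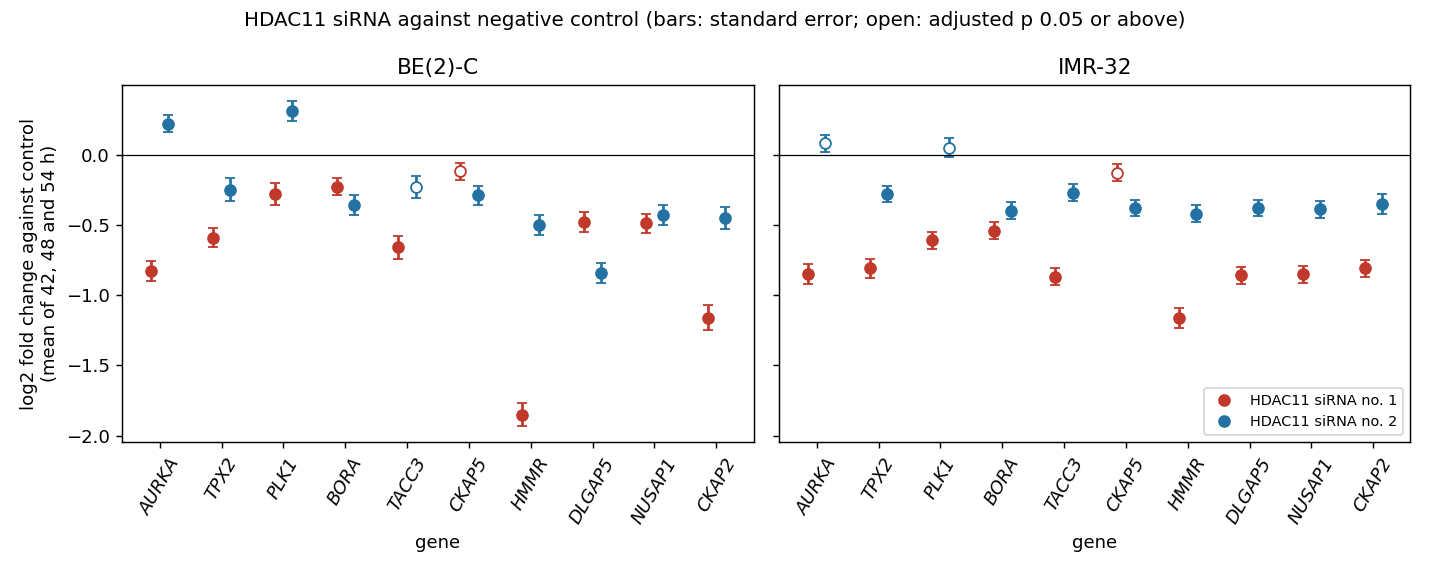
Log2 fold change of each gene against the negative control, averaged over 42, 48 and 54 h (vertical axis), for both HDAC11 siRNAs in each line. Bars are standard errors, and open circles did not pass the test. The values run from -1.85 (HMMR, siRNA no. 1, BE(2)-C) to 0.31 (PLK1, siRNA no. 2, BE(2)-C), and those of siRNA no. 1 are all below 0.

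No change of the effects over the window of 42 to 54 h passed the test. Of the 40 siRNA effects, none differed between 54 h and 42 h after adjustment with limma, as for all other genes (0% called), and 3 had an unadjusted p under 0.05. These were AURKA with siRNA no. 1 in BE(2)-C cells (0.44, 95% confidence interval 0.09 to 0.79, adjusted p = 0.917), and HMMR (-0.43, -0.77 to -0.09, adjusted p = 0.986) and DLGAP5 (-0.42, -0.73 to -0.12, adjusted p = 0.986) with siRNA no. 1 in IMR-32 cells. By their second probes the values were 0.28 for AURKA, -0.41 for HMMR and -0.14 for DLGAP5. Among the 20 control changes from 42 to 54 h, none passed, with 1.94% of all genes called in BE(2)-C cells and 0% in IMR-32 cells, and 3 had an unadjusted p under 0.05. They were all in BE(2)-C cells, where TPX2 differed by 0.58 (adjusted p = 0.0747), PLK1 by -0.54 (adjusted p = 0.0534) and HMMR by -0.34 (adjusted p = 0.259). The second HMMR probe went the other way there (0.12, 95% confidence interval -0.13 to 0.38). TPX2 and PLK1 both passed without control replicate 2 of 54 h.

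The PLK1 arrays show the control change against both siRNAs. At 42 h in BE(2)-C cells, the controls read 287 and 307, siRNA no. 1 arrays 261 and 191 and siRNA no. 2 arrays 347 and 379. At 54 h the controls read 184 and 226, siRNA no. 1 arrays 216 and 184 and siRNA no. 2 arrays 285 and 286. The 54 h controls thus read close to the siRNA no. 1 arrays, although the control change did not pass. In this line the single time at which PLK1 passed was 54 h with siRNA no. 2 (0.48, adjusted p = 0.019). HMMR in the same line read 1203 and 1224 in the 42 h controls against 359 and 274 with siRNA no. 1, and 1021 and 906 in the 54 h controls against 292 and 259. Its log2 fold changes with siRNA no. 1 were -1.95, -1.81 and -1.81 at 42, 48 and 54 h, all past the test. By the second HMMR probe the controls read 866 and 907 at 42 h and 987 and 942 at 54 h.

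**Figure D3:**
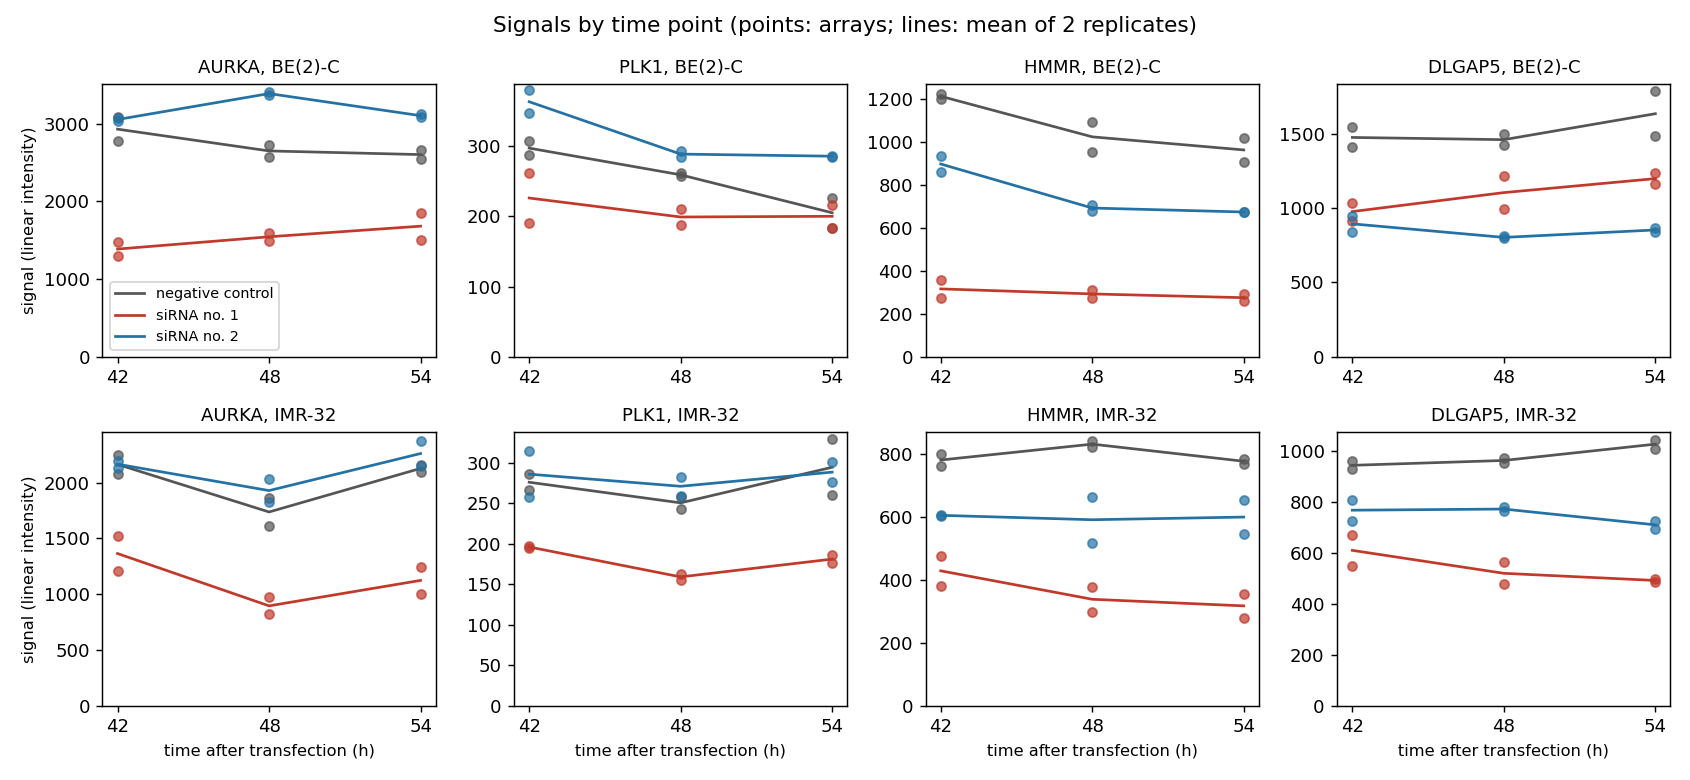
Signals of AURKA, PLK1, HMMR and DLGAP5 (vertical axes, linear intensity from 0) at 42, 48 and 54 h after transfection (horizontal axes) in both lines. Points are arrays and lines join the means of 2 replicates. AURKA with siRNA no. 1 stays between 1300 and 1853 in BE(2)-C cells, below every control array.

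At single times, the share of all genes called in either direction at 42, 48 and 54 h was 11.3%, 12.1% and 14.9% for siRNA no. 1 in BE(2)-C cells, where siRNA no. 2 had 2.63%, 3.47% and 6.15%. For the IMR-32 line it was 10%, 12.8% and 13.3%, and 2.16%, 3.32% and 6%. With siRNA no. 1, 9 members passed at all 3 times in IMR-32 cells, and in BE(2)-C cells AURKA, TACC3, HMMR, DLGAP5 and CKAP2 passed at all 3 and TPX2 and NUSAP1 at 2. With siRNA no. 2, DLGAP5 passed at all 3 times and HMMR at 2 in BE(2)-C cells, and HMMR and CKAP5 at 2 in IMR-32 cells by their brightest probe. The study's rule for regulated transcripts asks for 1 probe to pass at 2 or more times with the same sign, and never with the opposite one, with each siRNA. HMMR and DLGAP5 met it in BE(2)-C cells (0.534% of all genes met it there, lower), and HMMR, DLGAP5 and NUSAP1 in IMR-32 cells (0.489%). In IMR-32 cells, DLGAP5 and NUSAP1 met it by their second probe alone, with siRNA no. 2 values at 48 and 54 h of -0.43 and -0.57 for DLGAP5 and -0.49 and -0.41 for NUSAP1. The IMR-32 count of 3 hung on single arrays. It was 0 without either 48 h control replicate or siRNA no. 2 replicate 1 of 48 h, it was 1 (DLGAP5) without control replicate 1 or siRNA no. 2 replicate 1 of 54 h, and it was 5, with BORA and CKAP2 added, without siRNA no. 2 replicate 2 of 54 h. The BE(2)-C count stayed at 2 whichever array was left out.

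Set directly against each other over their 12 arrays per line, the siRNAs differed for most of the genes. In BE(2)-C cells 7 of 10 passed (29.8% of all genes) and in IMR-32 cells 9 of 10 (28.2%). Shares among detected genes are not given for this comparison, and against the controls they were larger than those of all genes. No excess over detected genes is therefore read from these 2 counts. AURKA was 2.08-fold lower with siRNA no. 1 than with no. 2 in BE(2)-C cells (log2 difference -1.06, 95% confidence interval -1.19 to -0.92, adjusted p = 6.91e-13) and 1.91-fold lower in IMR-32 cells (-0.93, -1.07 to -0.80, adjusted p = 1.59e-13). HMMR differed by -1.35 in BE(2)-C cells (-1.50 to -1.21, adjusted p = 2.64e-14) and in IMR-32 cells by -0.75 (-0.90 to -0.59, adjusted p = 4.94e-10). PLK1 differed by -0.59 and -0.66, CKAP2 by -0.71 and -0.46, TACC3 by -0.43 and -0.59 and TPX2 by -0.33 and -0.53, for BE(2)-C and IMR-32 cells in turn, and each of these passed (adjusted p = 1.66e-04 or lower).

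A few genes went against this order. DLGAP5 was higher with siRNA no. 1 than with no. 2 in BE(2)-C cells (0.36, 95% confidence interval 0.22 to 0.49, adjusted p = 1.29e-04) and lower in IMR-32 cells (-0.48, -0.61 to -0.35, adjusted p = 1.34e-07). CKAP5 was higher with siRNA no. 1 in IMR-32 cells (0.25, 0.13 to 0.37, adjusted p = 0.00115), and in BE(2)-C cells its difference was 0.17 (0.03 to 0.30, adjusted p = 0.0782). Its second probe gave 0 in IMR-32 cells (-0.13 to 0.12). The difference of BORA, the PLK1 cofactor, was 0.13 in BE(2)-C cells (0 to 0.25, adjusted p = 0.184) and -0.14 in the other line (-0.28 to -0.01, adjusted p = 0.173). For NUSAP1 it was -0.06 in BE(2)-C cells (-0.20 to 0.08, adjusted p = 0.682), although its second probe passed (-0.21, adjusted p = 0.0181), and NUSAP1 was lower with siRNA no. 1 in IMR-32 cells (-0.45, adjusted p = 1.18e-06).

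**Figure D4:**
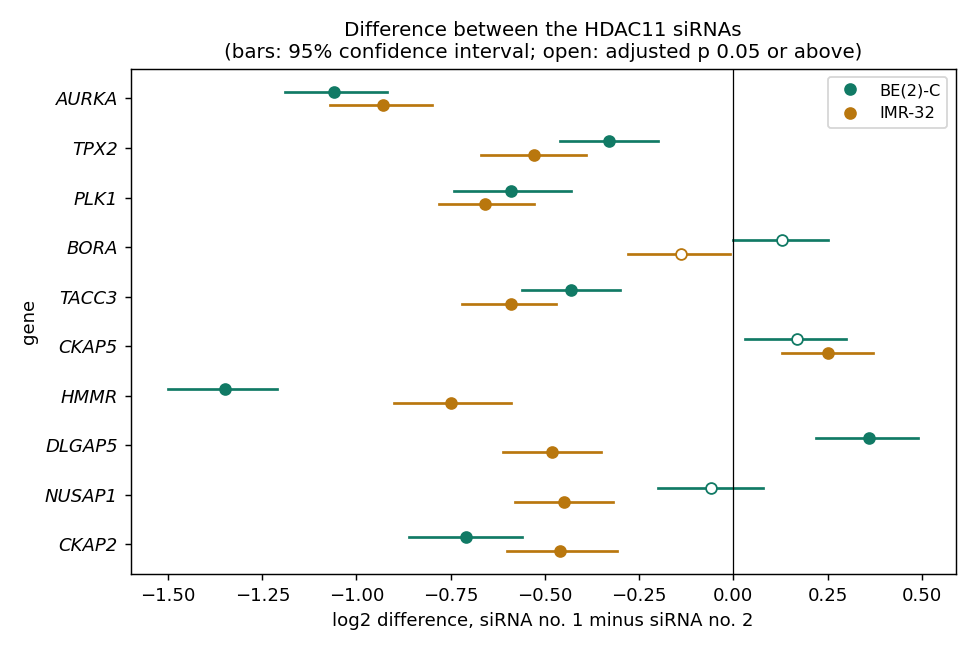
Log2 difference of siRNA no. 1 minus siRNA no. 2 (horizontal axis) for each gene (vertical axis) in both lines, over 12 arrays per line. Bars are 95% confidence intervals, and open circles did not pass the test. AURKA and HMMR lie furthest to the left (-1.06 and -1.35 in BE(2)-C cells), and DLGAP5 lies on opposite sides of 0 in the 2 lines.

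The lines differed in how strongly siRNA no. 1 acted on 5 of the 10 genes in the interaction over all 36 arrays (13.1% of all genes). For the interactions, too, the share among detected genes alone is not given. HMMR fell less in IMR-32 than in BE(2)-C cells (interaction 0.69, SE 0.11, adjusted p = 4.26e-06), and PLK1 (-0.34, SE 0.10, adjusted p = 0.0246), BORA (-0.31, SE 0.09, adjusted p = 0.0205), DLGAP5 (-0.38, SE 0.09, adjusted p = 0.00321) and NUSAP1 (-0.36, SE 0.09, adjusted p = 0.00929) fell more. Without siRNA no. 1 replicate 2 of 48 h in IMR-32 cells, HMMR, DLGAP5 and NUSAP1 passed, and with median scaling PLK1, HMMR and NUSAP1. The interaction of CKAP2 was 0.35 (adjusted p = 0.0514, and 0.0395 with its second probe), and that of AURKA was -0.02 (95% confidence interval -0.22 to 0.17). For siRNA no. 2, DLGAP5 alone passed (4.88% of all genes), with a smaller fall in IMR-32 cells (0.45, SE 0.09, adjusted p = 0.0012).

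The lines also differed before any HDAC11 siRNA was applied. Between the 6 control arrays of each line, 8 of the 10 genes passed, against 39.8% of all genes. The brightest probe of every member was detected on every array, and the share among detected genes alone is not given. No excess over detected genes is therefore read from this count. DLGAP5 (-0.64), TACC3 (-0.56), AURKA (-0.45), HMMR (-0.41), NUSAP1 (-0.37) and TPX2 (-0.26) were lower in IMR-32 than in BE(2)-C controls, with adjusted p of 0.00996 or lower. CKAP5 (0.64) and BORA (0.32) were higher there (adjusted p = 5.15e-09 and 1.68e-04). PLK1 (0.12, 95% confidence interval -0.03 to 0.27) and CKAP2 (0.10, -0.06 to 0.26) did not pass. The second CKAP5 probe gave -0.05 (-0.21 to 0.11), so the CKAP5 difference rests on its bright probe.

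Array by array, the genes did not all follow the same course. Each value was taken minus the control mean of the same line and time and correlated over the 24 HDAC11 siRNA arrays with the mean of the other 9 genes, as a description only, since the arrays share controls and groups. The correlation was 0.942 for AURKA, 0.919 for TACC3, 0.838 for TPX2, 0.801 for PLK1, 0.772 for CKAP2, 0.719 for HMMR and 0.708 for NUSAP1. It was 0.236 for DLGAP5, 0.194 for BORA and -0.567 for CKAP5, the members whose siRNA no. 1 minus no. 2 difference in BE(2)-C cells was above 0. The closest pair was HMMR and CKAP2, with 0.947. Among 7789 other genes detected on all 36 arrays, those closest to the mean of the 10 were CENPM, a centromere protein (0.973), PBK, a mitotic kinase (0.970), AURKB, the Aurora kinase of the chromosomal passenger complex (0.969), DDIAS (0.960) and TRIP13, an ATPase of the spindle checkpoint (0.960).

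**Figure D5:**
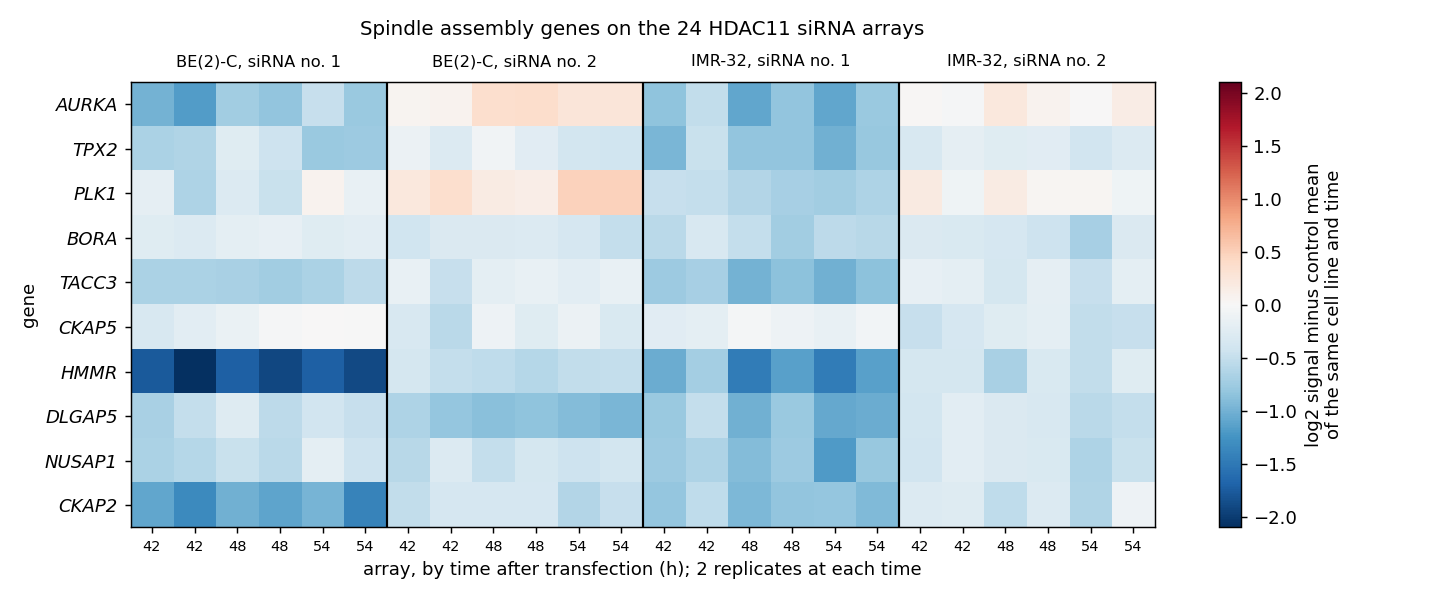
Log2 signal of the 10 genes (rows) on each of the 24 HDAC11 siRNA arrays (columns, ordered by line, siRNA and time), minus the control mean of the same line and time. Blue is lower and red is higher than the controls. AURKA and PLK1 are mostly blue with siRNA no. 1 and pale or red with siRNA no. 2, while BORA is blue with both siRNAs and CKAP5 is paler with siRNA no. 1 than with no. 2.

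Beyond the 10 genes, many of the other spindle factors were called lower with siRNA no. 1. Of 23 measured spindle assembly factors outside the 10, 12 fell and 4 rose with siRNA no. 1 in BE(2)-C cells and 13 fell and 5 rose in IMR-32 cells, whereas with siRNA no. 2 3 fell and 2 rose, and 8 fell and none rose. The median log2 fold changes were -0.31, -0.17, -0.02 and -0.10 in that order. Of all genes, siRNA no. 2 lowered 7.54% and raised 6.39% in BE(2)-C cells and lowered 7.28% and raised 6.02% in IMR-32 cells. Of detected genes it lowered 15.6% and 14.7%, so the BE(2)-C counts of 3 lower and 2 higher are near that background. Nothing is read from the counts that rose with either siRNA. The shares for siRNA no. 1 were 11.5% lower and 12.9% higher, and 10.9% and 13.3%, of all genes, and 24% and 21.5% lower of detected ones. KPNA2, the importin that holds TPX2, fell under siRNA no. 1 (-1.69 and -1.52 for the BE(2)-C and IMR-32 lines, adjusted p = 4.29e-13 and 2.73e-14) and had -0.02 and -0.11 with siRNA no. 2 (adjusted p = 0.929 and 0.358). PRC1, which bundles midzone microtubules, fell under siRNA no. 1 (-1.90 and -1.23) and had 0.03 and -0.10 with siRNA no. 2 (adjusted p = 0.909 and 0.462). ASPM, a spindle pole protein, fell under siRNA no. 1 (-0.78 and -0.76), and for siRNA no. 2 only the IMR-32 value passed (-0.33, adjusted p = 0.00111, against -0.12, adjusted p = 0.531).

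The genes of the gamma-tubulin ring and of augmin, which nucleate and branch microtubules, were called in part with siRNA no. 1. Of 19 measured, 8 fell and 2 rose with siRNA no. 1 in BE(2)-C cells, and 8 fell and 3 rose in IMR-32 cells. Of all genes, siRNA no. 1 lowered 11.5% and raised 12.9%, and lowered 10.9% and raised 13.3%, in these lines. It lowered 24% and 21.5% of detected genes. With siRNA no. 2 the counts were 2 and 1, and 3 and 0. The median log2 fold changes of the list were small. They were -0.14 and -0.07 with siRNA no. 1 for BE(2)-C and IMR-32 cells, and -0.07 and -0.04 with siRNA no. 2. The counts for siRNA no. 2 are near the background of 15.6% and 14.7% of detected genes lower, and nothing is read from them. MZT1, a small subunit of the gamma-tubulin ring, fell in all 4 comparisons (-0.95 and -0.37 for BE(2)-C, -0.84 and -0.34 for IMR-32), as did HAUS4 of augmin (-0.75, -0.42, -0.24 and -0.22). HAUS8, the augmin subunit that binds microtubules, had -0.48, -0.18, -0.85 and -0.28, of which the second did not pass (adjusted p = 0.115).

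Among partners of the Aurora and Polo-like kinases, many were called lower with siRNA no. 1. Of 16 measured, 9 fell and 2 rose with siRNA no. 1 in BE(2)-C cells, and 9 fell and 1 rose in IMR-32 cells. Of all genes, siRNA no. 1 lowered 11.5% and raised 12.9%, and lowered 10.9% and raised 13.3%, in these lines. It lowered 24% and 21.5% of detected genes. With siRNA no. 2 the counts were 4 and 2, and 5 and 1, beside 7.54% of all genes lower and 6.39% higher, and 7.28% and 6.02%. Of detected genes, 15.6% and 14.7% were lower with siRNA no. 2. Nothing is read from the few genes that rose. CCNB1, the cyclin of mitotic entry, fell with siRNA no. 1 (-1.41 and -0.98) and had -0.10 and -0.12 with siRNA no. 2 (adjusted p = 0.507 and 0.267). AURKB fell with siRNA no. 1 (-0.83 and -1.06) and had -0.21 and -0.15 with siRNA no. 2 (adjusted p = 0.0966 and 0.14). PKMYT1, an inhibitory kinase of CDK1, fell in all 4 comparisons (-1.08 and -0.56 for BE(2)-C, -0.92 and -0.28 for IMR-32).

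General cell cycle genes fell with siRNA no. 1 nearly throughout. All 15 G2/M genes measured fell with siRNA no. 1 in each line, and 7 and 8 fell with siRNA no. 2 in the BE(2)-C and IMR-32 lines, with medians of -0.52, -0.80, -0.18 and -0.22. Of all genes, siRNA no. 1 lowered 11.5% and raised 12.9% in BE(2)-C cells and lowered 10.9% and raised 13.3% in IMR-32 cells. It lowered 24% and 21.5% of detected genes. The share lowered by siRNA no. 2 was 7.54% and 7.28% of all genes and 15.6% and 14.7% of detected ones. UBE2C, a ubiquitin-conjugating enzyme of mitotic exit, fell in all 4 (-0.82 and -0.53 for BE(2)-C, -0.90 and -0.28 for IMR-32), and so did CDK1, the kinase of mitotic entry (-0.52, -0.45, -1.01 and -0.27). CCNB2, a mitotic cyclin, had -0.99, -0.15, -0.92 and -0.29, of which the second did not pass (adjusted p = 0.17). Of 15 S phase genes, 13 and 14 fell with siRNA no. 1 and none rose, and with siRNA no. 2 3 fell and 3 rose in BE(2)-C cells and 6 fell in IMR-32 cells. The BE(2)-C counts for siRNA no. 2 are close to the 15.6% lower and 14.3% higher of detected genes. MCM2, of the replicative helicase, fell in all 4 comparisons (-0.90, -0.60, -0.98 and -0.61), as did RRM2, of ribonucleotide reductase (-1.11, -0.35, -1.09 and -0.34). GINS2, of the same helicase, had -0.70, -0.23, -1.04 and -0.50, of which the second did not pass (adjusted p = 0.0803). The part of a shift in cell cycle phases in the values of the 10 genes was not tested.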

How the data were processed

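RNA of 36 samples was hybridised to Illumina HumanHT-12 arrays. The authors dropped outlier beads (beyond 2.5 MAD) and took each probe's mean over its remaining beads, which they deposited as linear intensities without normalization. Beside each intensity they deposited a p-value for detection, whose test is not given in the sources used here. The authors also deposited intensities normalized between arrays, used as an alternative. Neither is background-subtracted, so fold changes of dim probes are compressed.

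All 36 arrays were quantile-normalized together, log2-transformed and fitted with limma 3.58.1 (R 4.3.3), without a filter. Of 47323 probes, 3 with blank cells or zeros were left out. Detected probes had a detection p below 0.01 and lay above the background centre, which is an array's median over probes whose detection p exceeded 0.98. Each siRNA fit held the 12 arrays of 1 siRNA and the controls of 1 line, with 1 coefficient per siRNA and time and 6 residual degrees of freedom. The siRNAs were compared over 12 arrays per line, and the lines by an interaction over 36. p-values were adjusted over all probes (Benjamini-Hochberg). The fits were tested on simulated data. Figures were drawn with matplotlib 3.10.9.

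Every member is named with all of its probes, and a gene has the value of its probe with the highest mean log2 signal. Of each gene list, up to 3 genes with the largest mean change among those detected on all 12 control arrays are named, and the 5 genes most correlated with the members. The members and lists were chosen with earlier results of these data known. Gene names are RefSeq symbols matched to the probe annotation by gene identifier, or those of the annotation where none matched. Probes with several symbols were left out of the gene values. Promoter sequences are from RefSeq (GRCh38.p14). No resampling or set test was run.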

Additional observations from a re-analysis of the deposited data

Results flagged for a closer look

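In 4 of the 60 groups of 6 arrays (1 gene, line and siRNA), 1 array stood apart from the other 5 by Dixon's test, and chance flags about 1 in 20 groups. BORA read 504 on BE(2)-C control replicate 2 of 54 h, against 427 to 438 on the other 5 arrays. It read 341 on IMR-32 siRNA no. 2 replicate 1 of 54 h, against 407 to 451. TACC3 read 589 on BE(2)-C siRNA no. 2 replicate 2 of 42 h, against 738 to 828, and on the same array NUSAP1 read 2671, against 2002 to 2188.

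The effect of an siRNA differed between the lines, by the interaction across all 36 arrays, for 6 pairs of gene and siRNA. With siRNA no. 1, the difference of IMR-32 minus BE(2)-C effects was 0.69 for HMMR, a smaller fall in IMR-32 cells. It was -0.38 for DLGAP5, -0.36 for NUSAP1, -0.34 for PLK1 and -0.31 for BORA, larger falls in IMR-32 cells. With siRNA no. 2 it was 0.45 for DLGAP5, a smaller fall in IMR-32 cells.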

How the results depend on the processing

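Of the 40 averaged effects of 10 genes in 4 comparisons, 34 kept their side of the threshold and all kept their direction where they were called, under quantile normalization per line, median scaling, normexp correction, the authors' normalized values, detected probes only, an intensity trend with a robust prior, the replicate block, the probe of the largest minimal F and leaving out each array. The 6 that did not are given beside their genes in the report, and the cause was not tested. The number of members with a different siRNA no. 1 effect in the 2 lines was 3 with median scaling and 3 at an adjusted p under 0.01, against 5, and 3 to 6 without 1 array. The number of IMR-32 genes lower at 2 or more times with both siRNAs was 1 with normexp correction, 5 over detected probes, 5 with the trend and 0 at an adjusted p under 0.01, against 3, and 0 to 5 without 1 array. The number of control genes that differed between 54 and 42 h was 1 with the authors' normalized values (PLK1), against 0, and 0 to 2 without 1 array. Median scaling lowered the share of called genes that were higher with siRNA no. 2 from 45.9% to 25.2% in BE(2)-C and from 45.3% to 30.1% in IMR-32 cells, over all genes.

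Same-numbered replicates of different siRNAs correlated in their deviations at -0.046 to 0.219. The value was over 0.1 in 6 of 18 pairs, all of them with the control, and below -0.1 in 0. These low values do not settle whether the numbers pair the samples. The main fits took no pairing, and the replicate block was run as an alternative. With the replicate block, the IMR-32 count at 2 or more times was 5 and the control time count was 2 (TPX2 and PLK1 in BE(2)-C cells), and the other counts stayed within 1.5 times. The number of arrays, 2 per group, limits the precision, and PLK1 and the second CKAP5 probe are dim.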
